A study of Mus musculus with 6 samples.

Results

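The C1q-like proteins and cerebellins are secreted organisers of synapses, encoded here by C1ql1, C1ql2, C1ql3, Cbln1, Cbln2, Cbln3 and Cbln4, and considered with Adgrb3, which encodes a receptor of the C1q-like proteins. These 8 genes, taken as families by name, were matched by symbol to Ensembl identifiers among the 48795 in the count table, and all 8 had enough counts to be tested. The libraries hold polyadenylated RNA of mouse hippocampus, with 3 libraries of wild-type mice (WT) and 3 of mice that had lost the histone demethylases KDM1A and KDM5C (double knockout, KO). KO mice carried floxed Kdm1a (exons 5 and 6) and Kdm5c (exons 11 and 12) and CamKIIα-CreERT2, a recombinase that tamoxifen activates in principal neurons of the forebrain. The background was C57BL/6J, tamoxifen was given to both groups, and mice were 2 to 3 months old when they received it. Glia, interneurons and other cells outside the driver keep both genes, and whether WT mice carried the recombinase is not given in the sources used here. Effects of the recombinase, and of losing either demethylase alone, cannot be told apart from those of the double loss. Kdm1a measured 69.2 to 76.6 counts per 1000000 (CPM, scaled by the trimmed mean of M-values, TMM) in WT and 37.6 to 40.0 CPM in KO (log2 fold change -0.93; edgeR quasi-likelihood adjusted p = 4.32e-07). Kdm5c measured 77.2 to 82.8 CPM in WT and 65.3 to 74.3 CPM in KO, a difference that did not pass over all genes (edgeR quasi-likelihood adjusted p = 0.143). Total counts were 19309576 to 19700249 per library.

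C1q-like proteins and cerebellins are released from presynaptic terminals, assemble through their C1q domains and bridge the synaptic cleft. In mice, the C1q-like proteins bind the adhesion G protein-coupled receptor BAI3, encoded by Adgrb3, and those of hippocampal mossy fibres also bind neurexin and kainate receptors at synapses onto CA3 cells. Cerebellins link presynaptic neurexins to postsynaptic glutamate receptors of the delta family, such as that encoded by Grid1, and cerebellin 4 also binds DCC and neogenin. In bulk tissue, more cells of a type and more RNA per cell cannot be told apart.

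The promoters of C1ql2 and of C1ql4, the fourth C1q-like gene, are shown because both genes rose and both have an entry in the RefSeq promoter table (GRCm38.p6), which matched 5 of the 8 members and C1ql4. Letters run 5′ to 3′ on the gene's strand up to the annotated start, and capitals mark CpG dinucleotides. C1ql2 lies at chr1:120340332-120340581 on the plus strand, and C1ql4 at chr15:99087818-99087978 on the minus strand, shortened to the bases before its GENCODE start.
C1ql2: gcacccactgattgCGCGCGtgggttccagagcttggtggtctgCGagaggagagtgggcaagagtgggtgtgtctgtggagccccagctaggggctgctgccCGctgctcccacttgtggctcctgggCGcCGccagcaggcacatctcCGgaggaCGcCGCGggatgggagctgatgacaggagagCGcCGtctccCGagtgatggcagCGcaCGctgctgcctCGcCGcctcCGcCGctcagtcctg
C1ql4: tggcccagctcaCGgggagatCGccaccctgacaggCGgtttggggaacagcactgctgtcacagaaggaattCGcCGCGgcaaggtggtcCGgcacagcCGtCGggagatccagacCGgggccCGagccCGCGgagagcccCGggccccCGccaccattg
The 250 bases before the RefSeq start held 20 CpG in C1ql2, 23 in C1ql3 and 26 in C1ql4 (15 of them in the printed stretch), against a median of 6 (quartiles 2 and 16) over 32817 promoters of the same length. Cbln4 had 11, Adgrb3 14 and Cbln3 2. An E-box (CANNTG) was found once in C1ql2 and not in C1ql4, where 66.2% of all promoters hold one. GC boxes (GGGCGG, in 32.7% of all promoters) were present in C1ql3, Cbln4 and Adgrb3 and in neither printed promoter. The window of C1ql3 lies inside its GENCODE gene, 942 bases past that start, and those of C1ql4 and Cbln3 run 89 and 136 bases past theirs. CCAAT (33.8% of all promoters) was found in Adgrb3 and Cbln4, TGACG (17.7%) in Cbln4 and in the C1ql4 window outside the printed stretch, and TATAAA (12.4%) in none of the 6 windows. Both strands were searched, and matches of the motifs were counted separately and may overlap. These are letters in a window, not measured binding.

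Among the secreted ligands, C1ql1 and C1ql2 rose in KO hippocampus and the cerebellins did not pass the test. Of the 8 members 2 rose, against 5.9% of 16861 genes tested, and 0 fell, against 1.05% (6.95% in either direction). Genes were called at a Benjamini-Hochberg adjusted p under 0.05, taken over the whole table, from the quasi-likelihood test of edgeR. At an unadjusted p under 0.05 the counts were 3 up and 0 down, and DESeq2 and limma-voom each called 2 rises and 0 falls. The median log2 fold change of the 8 was 0.05, beside -0.01 over all tested genes. In 3 of the 8 every KO library lay above every WT library, an arrangement seen in 14% of tested genes (25.2% when either order counts).

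C1ql1 (ENSMUSG00000045532, chromosome 11, 102939264 to 102946688, minus strand, GRCm38), which in mice serves climbing fibre synapses of the cerebellum, was the member with the largest change. It measured 5.35, 6.22 and 7.29 CPM in WT replicates 1, 2 and 3 and 15.1, 17.8 and 17.6 CPM in KO replicates 1, 2 and 3. All KO values stood above all WT values, with a gap wider than the spread within either group. The rise was 2.68-fold (95% interval 2.22 to 3.22; log2 fold change 1.42, SE 0.125; edgeR adjusted p = 4.29e-06), from 6.28 ± 0.969 to 16.8 ± 1.51 CPM (mean ± SD, n = 3 each). Oligodendrocyte precursors, a cell type in which C1ql1 is also detected in mice, were followed by Pdgfra and Cspg4. Pdgfra measured 53.2 to 55.6 CPM in WT and 58.1 to 61.2 CPM in KO (adjusted p = 0.234, edgeR), and Cspg4 28.2 to 35.7 and 33.8 to 36.5 CPM (adjusted p = 0.308, edgeR). Their part in the rise of C1ql1 was not tested.

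C1ql2 (ENSMUSG00000036907, chromosome 1, 120340582 to 120343174, plus strand), a product of dentate granule cells that reaches mossy fibre synapses, rose 1.37-fold. Its level was 72.0, 65.6 and 73.8 CPM in WT replicates 1 to 3 and 82.3, 113 and 94.8 CPM in KO replicates 1 to 3. The groups did not overlap, and the KO libraries differed among themselves more than the WT libraries did. The 95% interval of the fold was 1.19 to 1.58 (log2 fold change 0.46, SE 0.0957; edgeR adjusted p = 0.00847). Leaving out each library in turn gave folds of 0.33 to 0.56 on the log2 scale, and adjusted p-values of 0.00144 to 0.0421 in the edgeR test.

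Granule cell markers, set beside C1ql2, overlapped between the groups as a sum, and their part in its rise was not tested. The summed level of 9 markers was 682 to 855 CPM in WT and 688 to 766 CPM in KO, and Prox1, the factor that specifies granule cells, measured 94.5 to 124 and 94.7 to 111 CPM. Of the 9 markers, 1 rose, against 5.9% of all genes tested, and 0 fell, against 1.05%, in edgeR. At an unadjusted p under 0.05 the counts were 1 up and 1 down. DESeq2 called 1 rise and 1 fall, and limma-voom 1 rise and 0 falls. The marker that rose was Dsp, which encodes desmoplakin, at 49.5 to 73.1 CPM in WT and 74.3 to 83.3 CPM in KO (log2 fold change 0.43, SE 0.111; edgeR adjusted p = 0.0306). That call was lost without WT replicate 1 (adjusted p = 0.128), WT replicate 3 (0.0589), KO replicate 2 (0.109) or KO replicate 3 (0.123) in the edgeR test.

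C1ql3 (ENSMUSG00000049630, chromosome 2, 13003457 to 13011806, minus strand), the partner of C1ql2 at mossy fibre synapses, did not pass. WT replicates 1 to 3 measured 55.7, 55.8 and 56.1 CPM and KO replicates 1 to 3 measured 62.1, 64.2 and 61.9 CPM. The groups did not overlap and were narrow, yet the fold of 1.12 (95% interval 1.03 to 1.22) had an edgeR adjusted p of 0.108 and an unadjusted edgeR p of 0.0116. A pair of unclassified antisense models cover part of its exons, Gm37811 over 1547 and Gm37824 over 80 of 2535 bases. How the counting treated strand is not stated in the sources used here, and some C1ql3 reads may have been left out or shared. Between C1ql2 and C1ql3 transcripts 13 stretches of 31 bases are identical, and no such stretch is shared by any other pair among the 8 members and C1ql4.

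C1ql4 (ENSMUSG00000001076), whose product is related to the other C1q-like proteins, was nearly without reads in WT. It had 0, 1 and 0 reads in WT replicates 1 to 3 and 127, 132 and 110 reads in KO replicates 1 to 3, a ratio of 364 per scaled library size (95% counting interval 65.0 to 14423). It could be tested because of its KO counts alone. Summed over C1ql1 to C1ql4, the C1q-like level was 128 to 137 CPM in WT and 166 to 202 CPM in KO.

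**Figure D1:**
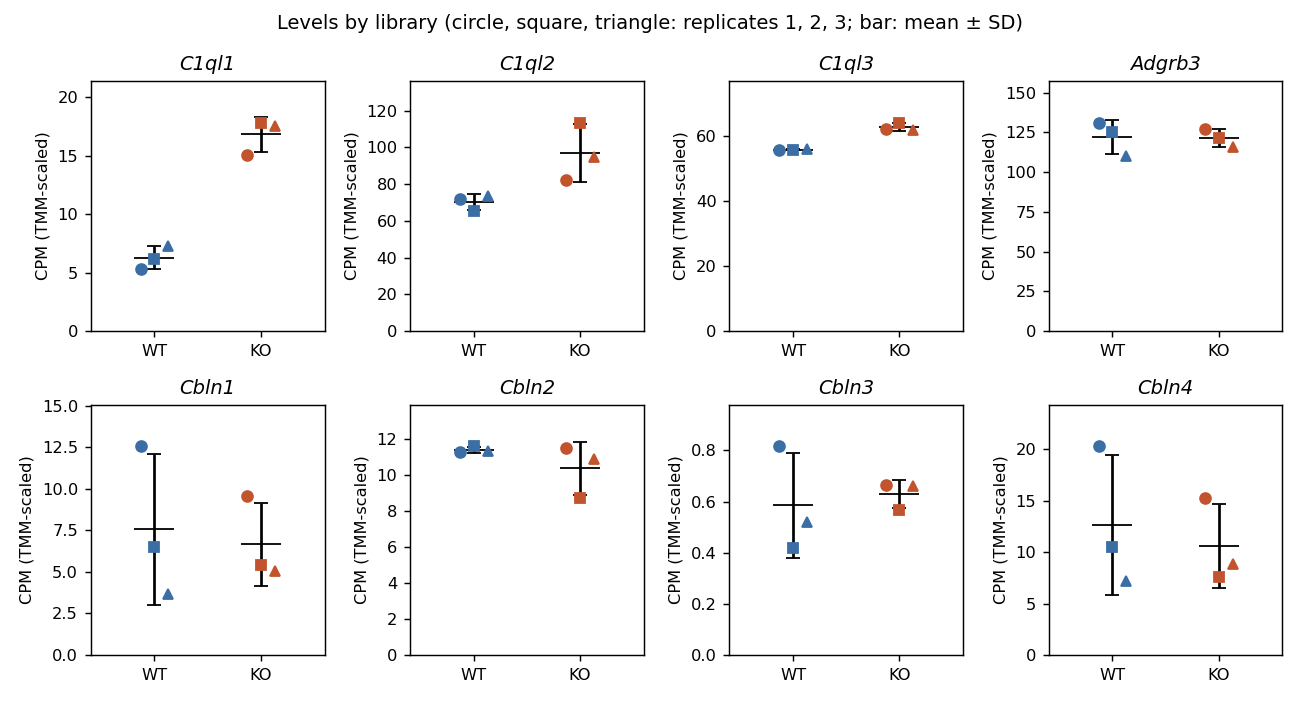
Level of each member in each library, in TMM-scaled CPM, for WT (blue) and KO (orange); symbols mark replicates 1, 2 and 3 and the bar gives the mean ± SD (n = 3). KO libraries stand above WT libraries for C1ql1, C1ql2 and C1ql3, and replicate 1 is the highest of its group for Cbln1 and Cbln4.

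Levels of Cbln1 and Cbln4 varied more between libraries of a group than between the groups. Cbln1 (chromosome 8, 87468405 to 87472609), the cerebellin that holds parallel fibre synapses in the cerebellum, measured 12.5, 6.48 and 3.64 CPM in WT replicates 1 to 3 and 9.53, 5.41 and 5.02 CPM in KO replicates 1 to 3. WT replicate 1 was the highest library and WT replicate 3 the lowest, 3.44-fold apart, with KO libraries between them. That spread exceeded counting error, since the 246 reads of WT replicate 1 have a 95% Poisson interval of 216 to 279 and the 70 reads of WT replicate 3 one of 54.6 to 88.4. The difference between groups was -12.0% with a 95% interval from -47.0 to 46.0% (edgeR adjusted p = 0.815), and it changed sign without WT replicate 1 (log2 fold change 0.39).

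Cbln4 (chromosome 2, 172036233 to 172043466), a ligand of neurexins and of DCC and neogenin, measured 20.3, 10.5 and 7.18 CPM in WT replicates 1 to 3 and 15.2, 7.63 and 8.88 CPM in KO replicates 1 to 3. Replicate 1 was again the highest of each group, and the groups overlapped over most of their range. The difference of -16.5% had a 95% interval from -47.3 to 32.4% (edgeR adjusted p = 0.700), and its log2 value went from -0.26 to 0.26 without WT replicate 1.

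Cbln1 and Cbln4 followed each other across the 6 libraries. By the distance between log2 levels less each gene's WT mean, Cbln4 was the nearest of 16860 tested genes to Cbln1 (distance 0.349, against 1.41 for the median gene). Sema3a, a secreted guidance cue, was among the 3 nearest genes both for Cbln1 (0.497) and for Cbln4 (0.322), and Igfn1 was the nearest to Cbln4 (0.239). Sema3a measured 4.84, 3.19 and 1.93 CPM in WT replicates 1 to 3 and 4.03, 2.01 and 2.59 CPM in KO replicates 1 to 3. Looking for neighbours of Cbln1 and Cbln4 was decided after their values were seen, and over 6 libraries likeness is a description.

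Markers of neighbouring cortex did not share 1 order of libraries. Cux2, a factor of upper cortical layers singled out after its values were seen, ran in the order of Cbln1, with 44.3, 36.5 and 29.1 CPM in WT replicates 1 to 3 and 37.7, 33.7 and 33.1 CPM in KO replicates 1 to 3. Tle4 (65.0, 57.9 and 52.5 CPM in WT replicates 1 to 3) and Nts (7.70, 5.90 and 6.87 CPM) of the same list were also highest of WT in replicate 1. Fn1 ran the other way in WT (89.8, 99.98 and 104 CPM in replicates 1 to 3), and Rorb (23.8, 22.3 and 24.1 CPM) and Fezf2 (43.4, 42.1 and 44.8 CPM) had no peak in WT replicate 1. Of the thalamic and habenular list, Slc17a6 was highest in WT replicate 1 (26.7, 21.1 and 14.2 CPM in WT replicates 1 to 3) and Prkcd lowest there (31.5, 37.7 and 35.7 CPM). Within WT, Ramp3 (4.08, 2.14 and 3.28 CPM), Tcf7l2 (5.25, 5.12 and 5.00 CPM) and Chrna3 were also highest in replicate 1. Tac2 was lowest there (3.47, 3.50 and 3.75 CPM). Lef1 (5.35, 5.96 and 3.54 CPM), Gng8, Gpr151 and Chrnb4 peaked in WT replicate 2, and Pou4f1 had 1 read in WT. The whole list of 6 cortical and subicular markers summed to 262 to 274 CPM in WT and 237 to 272 CPM in KO, and that of 11 thalamic and habenular markers to 67.3 to 79.3 CPM and 80.1 to 86.8 CPM. How far tissue of those regions enters the cerebellin values was not tested.

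**Figure D2:**
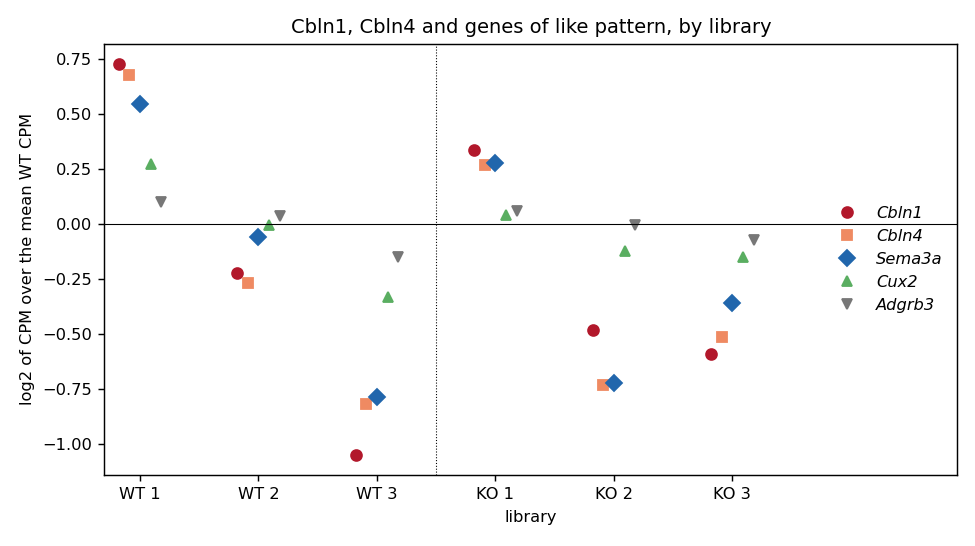
Level of Cbln1, Cbln4, Adgrb3, Sema3a and Cux2 in each library, as log2 of the CPM over the mean WT CPM of the same gene. Replicate 1 is the highest library of its group for all 5 genes, from 12.5 CPM for Cbln1 in WT replicate 1 down to 3.64 CPM in WT replicate 3.

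Cbln2 (chromosome 18, 86711110 to 86718283), a cerebellin of cortical and limbic neurons, was steady in WT at 11.3, 11.6 and 11.3 CPM in replicates 1 to 3. The KO replicates 1 to 3 had 11.5, 8.71 and 10.9 CPM, so KO replicate 2 was the lowest library and KO replicate 3 lay just under the WT range. The difference of -8.95% had a 95% interval from -23.5 to 8.31% (edgeR adjusted p = 0.567), and its log2 value shrank from -0.14 to -0.02 without KO replicate 2. Cbln3 (chromosome 14, 55878913 to 55884392), which in the cerebellum is secreted only together with Cbln1, was close to the limit of detection. It had 16, 8 and 10 reads in WT replicates 1 to 3 and 13, 11 and 13 reads in KO replicates 1 to 3. With so few reads, a difference between -36.3% and 80.9% (95% interval, edgeR adjusted p = 0.908) was not detectable at this depth. Of 5 cerebellar markers, Gabra6 and Barhl1 were at or near 0, at no more than 0.101 and 0.155 CPM in any library. Pcp2 (0.309 to 0.609 CPM), Fat2 (0.104 to 0.663 CPM) and En2 (0.459 to 1.12 CPM) were about as low as Cbln3, at 0.418 to 0.816 CPM. The 5 summed to 1.04 to 1.72 CPM in WT and 1.19 to 2.19 CPM in KO, and their part in the reads of Cbln3 was not tested.

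Adgrb3 (ENSMUSG00000033569, chromosome 1, 25067476 to 25829707, minus strand), the receptor of the C1q-like proteins, showed a narrow interval around no change. Its level was 131, 125 and 110 CPM in WT replicates 1 to 3 and 127, 122 and 116 CPM in KO replicates 1 to 3. KO values lay inside the WT range. The difference was -0.294% with a 95% interval from -10.4 to 10.9% (edgeR adjusted p = 0.983), so its sign, which several settings turned, carries no information.

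Per length of merged exons, C1ql2 and C1ql3 led the members and Cbln3 came last. In WT, C1ql2 measured 35.2 ± 2.15 and C1ql3 22.03 ± 0.0770 CPM per kb (mean ± SD, n = 3), with no overlap between them. The antisense model Gm37811 covers 1547 of the 2535 exon bases of C1ql3. Any reads left out there would lower the C1ql3 value, so the order of C1ql2 and C1ql3 is not settled. Adgrb3 followed at 6.58 ± 0.586 CPM per kb, and its merged exons of 18559 bases are longer than any single transcript, which lowers this value. Cbln4 (4.36 ± 2.35), C1ql1 (4.27 ± 0.658), Cbln2 (3.94 ± 0.0598) and Cbln1 (2.49 ± 1.496 CPM per kb) came next. From Adgrb3 down to Cbln1 each gene overlapped its neighbour in that order. Cbln3 stood apart at 0.120 ± 0.0424 CPM per kb. In KO, C1ql1 reached 11.4 ± 1.02 CPM per kb and its lowest library (10.2) exceeded the highest of Adgrb3 (6.87), so it took the place after C1ql3. C1ql4 in KO stood at 4.26 ± 0.429 CPM per kb.

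**Figure D3:**
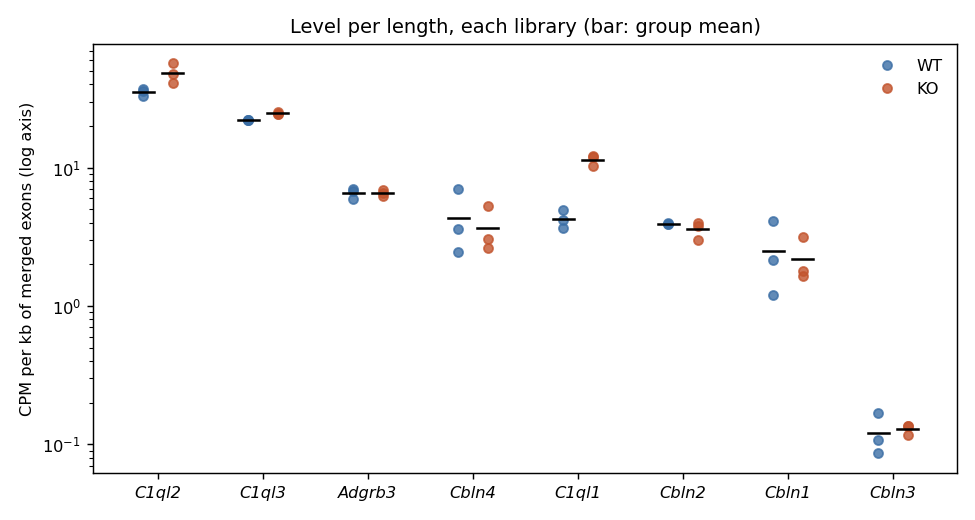
Level per length in each library, as CPM per kb of merged exons on a log axis, with members ordered by their WT mean; dots are libraries and bars group means. C1ql1 moves from 4.27 CPM per kb in WT to 11.4 in KO, above Adgrb3, while the order of the others is kept.

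The receptors and partners of these ligands described here did not pass the test. Grid1, with 80.5 to 86.6 CPM in WT and 84.8 to 89.5 CPM in KO, did not pass (1.04-fold, interval 0.954 to 1.13; edgeR adjusted p = 0.643).

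Nrxn3, which encodes a presynaptic receptor of C1q-like proteins, measured 199 to 218 CPM in WT and 186 to 195 CPM in KO, and its groups did not overlap (log2 fold change -0.14; edgeR adjusted p = 0.205). Every KO library below every WT library was seen in 11.2% of tested genes. Nrxn2, of the same family, had a 95% interval of the fold from 0.956 to 1.12. Adgrb1 and Adgrb2, the relatives of Adgrb3, had intervals from 0.873 to 1.05 and from 0.876 to 1.04. For the kainate receptor subunits Grik2 and Grik4 the intervals ran from 0.896 to 1.11 and from 0.973 to 1.24. Dcc and Neo1, receptors of Cbln4, had intervals from 0.891 to 1.35 and from 0.944 to 1.11.

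**Figure D4:**
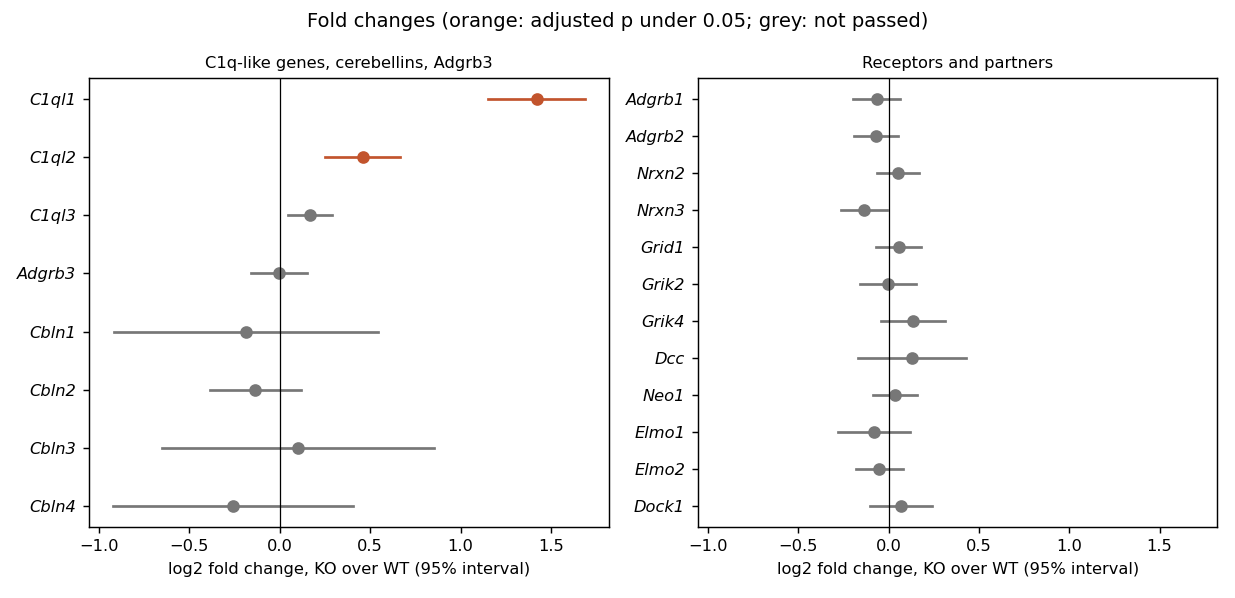
Log2 fold change of KO over WT with its 95% interval for the 8 members (left) and 12 receptors and partners (right); orange marks genes with an adjusted p under 0.05 in edgeR's quasi-likelihood test. C1ql1 (1.42) and C1ql2 (0.46) passed, and the intervals of Cbln1, Cbln3 and Cbln4 are the widest.

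Other organisers of synapses, such as neuroligins, LRRTM proteins, teneurins and receptor phosphatases, were called about as often as all genes. Of 44 tested 2 rose, against 5.9% of all genes, and 0 fell, against 1.05% (6 up and 6 down at an unadjusted p under 0.05, and 2 and 0 in DESeq2 and in limma-voom), and their median log2 fold change was -0.02. Ptprf, a presynaptic receptor tyrosine phosphatase, measured 75.1 to 80.9 CPM in WT and 99.0 to 105 CPM in KO (log2 fold change 0.37, SE 0.0588; edgeR adjusted p = 0.00101). Nptx2, a secreted pentraxin that clusters AMPA receptors, measured 22.6 to 26.1 CPM in WT and 30.5 to 42.1 CPM in KO (log2 fold change 0.53, SE 0.11; edgeR adjusted p = 0.00834). Without WT replicate 3 the list had 3 falls. The Nptx2 call was lost without WT replicate 1 (edgeR adjusted p = 0.0500254), and that of Ptprf without replicate 1 of both groups (0.0539).

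Among 22 other genes with a C1q domain, 16 could be tested. Of these 3 rose, against 5.9% of all genes tested, and 0 fell, against 1.05%. At an unadjusted p under 0.05 the counts were 5 up and 1 down. DESeq2 called 2 rises and 0 falls, and limma-voom 3 rises and 0 falls. The median log2 fold change of the 16 was 0.30, beside -0.01 over all tested genes. Another 6 with few reads were not tested, of which C1qtnf5 and Otol1 are listed at 0 in every library. C1qtnf6, a secreted C1q and TNF related protein, measured 3.11 to 3.34 CPM in WT and 6.29 to 7.11 CPM in KO (log2 fold change 1.06, SE 0.14; edgeR adjusted p = 0.00021). C1qtnf4, a brain-expressed relative, measured 58.4 to 67.2 CPM in WT and 75.2 to 93.6 CPM in KO (log2 fold change 0.43, SE 0.0825; edgeR adjusted p = 0.00494). C1qtnf12 measured 10.6 to 11.0 CPM in WT and 12.7 to 15.7 CPM in KO (edgeR adjusted p = 0.0384), a call that DESeq2 did not make (adjusted p = 0.0632). It was also lost in edgeR without WT replicate 1, 2 or 3 (adjusted p = 0.0841, 0.0914 and 0.0534) or KO replicate 2 or 3 (0.182 and 0.125). C1qa, C1qb and C1qc, the complement subunits of microglia, did not pass (log2 fold changes 0.21, 0.24 and 0.19).

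**Figure D5:**
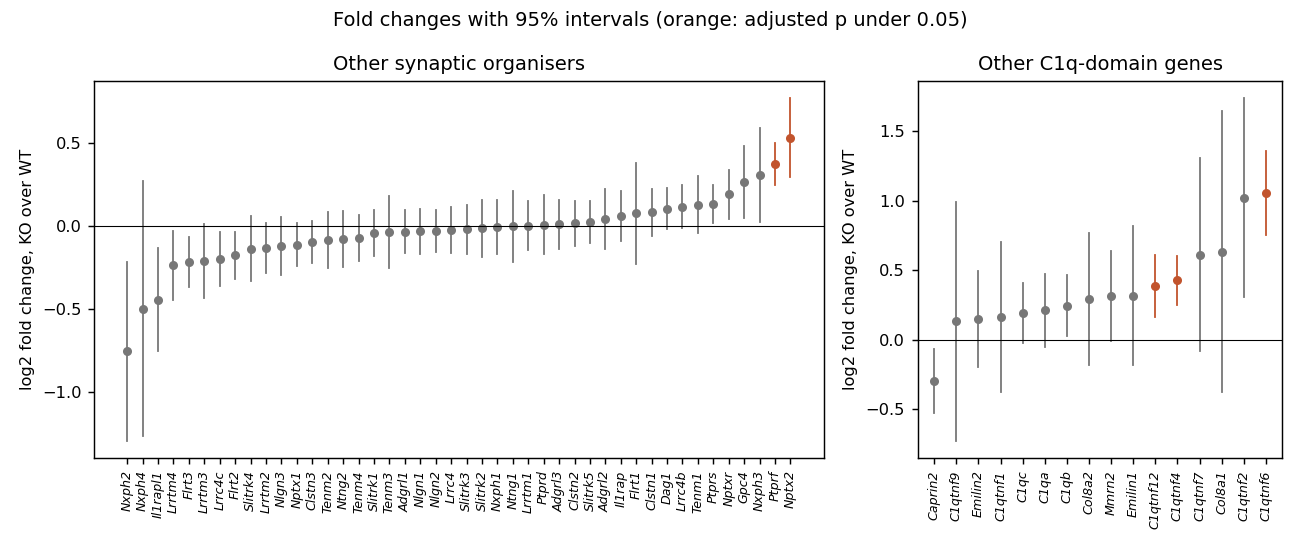
Log2 fold change of KO over WT with its 95% interval for 44 other synaptic organisers (left) and 16 tested genes with a C1q domain (right), ordered by fold; orange marks an adjusted p under 0.05 in edgeR. Ptprf and Nptx2 passed on the left and C1qtnf6, C1qtnf4 and C1qtnf12 on the right.

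Genes whose pattern over the 6 libraries was nearest to C1ql1 were Fgf16, a growth factor (distance 0.131), Meioc, required in meiotic prophase (0.166), and Clec18a, a lectin (0.219), against 2.40 for the median gene. Fgf16 measured 1.38, 1.57 and 1.87 CPM in WT replicates 1 to 3 and 4.54, 4.84 and 4.92 CPM in KO replicates 1 to 3. Nearest to C1ql2 were Tnni1, a troponin (0.0954), Ccdc13 (0.113) and C1qtnf4 (0.148), against 0.910 for the median gene. C1qtnf4 shares with C1ql2 the highest value in KO replicate 2 and the lowest in WT replicate 2. As C1qtnf4 was chosen by this distance, that likeness is no separate result.

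Over all 16861 genes tested 5.9% rose and 1.05% fell in edgeR, the shares to set beside the marker lists that follow. Of 6 CA1 markers 2 rose and 0 fell, and of 10 CA2 and CA3 markers 2 rose and 1 fell, in edgeR. Of 6 mossy cell markers 1 rose and 0 fell, also in edgeR. DESeq2 gave the same counts for these 3 lists, and limma-voom 1 rise in CA1. At an unadjusted p under 0.05 CA2 and CA3 markers had 3 up and 3 down, and CA1 and mossy cells no fall. Leaving out libraries gave 1 to 2 rises in CA1, 2 to 3 rises and 1 to 2 falls in CA2 and CA3, and 0 to 1 rise in mossy cells. The mossy cell call, Ajap1, was lost without WT replicate 1 or 2 or KO replicate 2 or 3 (edgeR adjusted p = 0.0920, 0.0957, 0.199 and 0.145). In CA1, Pou3f1 was lost without any single library other than KO replicate 1 (edgeR adjusted p from 0.0512 to 0.239). Of 9 thalamic and habenular markers tested 3 rose and 0 fell (1 down at an unadjusted p under 0.05), and of 4 of choroid plexus and ependyma 1 rose and 0 fell (0 down unadjusted), with the same counts in DESeq2 and limma-voom. With libraries left out, the thalamic and habenular list had 1 to 3 rises and 0 to 1 fall, and the choroid plexus and ependymal list 1 to 2 rises. Gpr151 and Prkcd did not pass without replicate 1 of both groups (edgeR adjusted p = 0.0659 and 0.0609). No call was made among 11 interneuron, 4 Cajal-Retzius, 1 cerebellar, 6 cortical and subicular, 6 microglial and 4 vascular markers by edgeR, DESeq2 or limma-voom, with 0, 1, 1, 0, 5 and 0 up and 2, 0, 0, 0, 0 and 0 down at an unadjusted p under 0.05. Of 6 astrocyte and 8 oligodendrocyte lineage markers 1 each rose and 0 fell, with 0 down unadjusted in both; DESeq2 and limma-voom gave the same counts except for 2 rises in the oligodendrocyte lineage in DESeq2. Leaving out libraries gave 1 to 4 rises among astrocyte and 0 to 2 among oligodendrocyte lineage markers. Summed levels of these glial lists did not overlap, at 2252 to 2639 and 2716 to 2767 CPM for astrocytes, 282 to 312 and 318 to 363 CPM for microglia, and 5025 to 5443 and 5596 to 6286 CPM for the oligodendrocyte lineage (WT and KO). The sum of the 4 choroid plexus and ependymal markers did not overlap either, at 36.3 to 52.6 and 68.2 to 128 CPM, but of the 4 genes only Kl was separated. Ttr measured 58.9, 1.597 and 55.9 CPM in KO replicates 1 to 3 and 5.96 to 19.1 CPM in WT. Their part in the rises of C1ql1 and C1ql2 was not tested. Whether replicate libraries stem from different mice is not in the labels, and the p-values therefore describe variation among these 6 libraries, which may be technical.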

How the data were processed

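Gene counts deposited by the authors, raw whole numbers per library over 48795 Ensembl identifiers, were used as they stand. The submitters' processing notes name cutadapt 1.18, HISAT2 and HTSeq 0.11.1 and the mm10 build (GRCm38). Neither the annotation release nor the handling of strand and of reads with several matches is stated in the sources used here. Symbols, coordinates and merged exon lengths came from GENCODE M21 (446 identifiers unmatched), and promoters from RefSeq.

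Genes were filtered with filterByExpr (minimum count 10, minimum total 15; 16861 left), scaled with TMM and tested with edgeR 4.0.16 on group alone, with Benjamini-Hochberg adjustment over all genes tested. The alternatives comprised DESeq2 1.42.0, limma-voom (limma 3.58.1), scaling by RLE or by library size alone, no filter, a minimum of 1 CPM in 3 libraries, the replicate number as a block, and each library left out in turn; leaving out replicate 1 of both groups was chosen after seeing the data. The SE is the log2 fold change over the square root of F. Fits were tested on simulated data. Pattern distance is Euclidean over the 6 libraries, on log2(CPM + 0.5). Software was R 4.3.3. Counting intervals cover counting error only.

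Members and lists were chosen with earlier results of these data known. Named genes are the members, C1ql4, Kdm1a and Kdm5c, in each list up to 4 genes past the threshold by adjusted p, and the 3 genes nearest in pattern to the 2 members with the smallest adjusted p; from the marker lists only those beside a result are named. Genes outside this rule (Cux2, Slc17a6, Pdgfra, Cspg4, Prox1, Gabra6, Barhl1, Pcp2, Fat2, En2, Fn1, Rorb, Fezf2, Ttr, Nrxn2, Nrxn3 and the other partners shown) were named after their values were seen. So were Tle4, Nts, Ramp3, Tcf7l2, Tac2, Lef1, Gng8, Chrnb4 and Pou4f1. Some genes that this rule or the lists hold are not reported here, and no count is given for the list of receptors and partners.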

Additional observations from a re-analysis of the deposited data

How the results depend on the processing

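C1ql1 and C1ql2 rose and 0 members fell under all 14 alternatives to the edgeR test described, including each library left out. Leaving out libraries, the log2 fold change of C1ql1 ran from 1.32 to 1.54, that of C1ql2 from 0.33 to 0.58 and that of C1ql3 from 0.15 to 0.18. Signs turned only among members that did not pass. Cbln1 gave 0.39 without WT replicate 1 and 0.0422 without replicate 1 of both groups, and ran from -0.54 to 0.39. Cbln4 gave 0.26 without WT replicate 1 and ran from -0.62 to 0.26. Cbln3 gave -0.0873 without WT replicate 2 and ran from -0.0873 to 0.42. Adgrb3 gave 0.0160 with library size alone, 0.00136 with at least 1 CPM in 3 libraries, 0.0491 without WT replicate 1, 0.0133 without WT replicate 2, 0.0318 without KO replicate 3 and 0.0141 without replicate 1 of both groups, and ran from -0.0747 to 0.0491. Cldn5, a vascular marker, gave -0.0241 without WT replicate 2 and ran up to 0.216. Cbln3 has no value at the stricter filter of 1 CPM.

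Among all genes tested, 995 rose and 177 fell. Falls numbered 279 with no filter, 323 without WT replicate 3, 102, 67 and 48 without KO replicates 1, 2 and 3, and 72 without replicate 1 of both groups, so they ran from 48 to 323. Rises ran from 557 to 1101, with 557 without replicate 1 of both groups. The cause was not tested, beyond fewer libraries in those fits.

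No pairing by replicate number was visible over the tested genes: deviations of same-numbered libraries correlated at 0.00465, -0.00921 and -0.0240, and other pairs between -0.124 and 0.128. Such correlations cannot show how the samples were collected. With the replicate block 2 members rose and 0 fell, and 960 genes rose and 149 fell. C1qtnf12, Ajap1 and Pou3f1 did not pass under the block (adjusted p = 0.0628, 0.0509 and 0.0611, edgeR).

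With 3 libraries a group, the wide intervals given for Cbln1, Cbln3 and Cbln4 leave room for a rise or a fall.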
